A study of Mus musculus with 8 samples.

Results

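The miR-17-92 cluster is a group of 6 microRNA (miRNA) precursors cut from 1 transcript, and its mature arms were examined in the testes of male mice. The members were all miRNA rows of the small RNA table named miR-17, miR-18a, miR-19a, miR-20a, miR-19b, miR-19b-1, miR-92a or miR-92a-1 with the suffix of the 5p or the 3p arm. This rule, which uses names and no measured value, gave 12 arms out of 20558 small RNAs, 576 of which are mature miRNAs. Small RNA of 8 adult C57Bl/6 males was sequenced, 1 library per mouse: 4 mice on a standard diet (SD; M1N, M2N, TN1 and TN2) and 4 on a Western-like diet rich in sugar and butter (WD; M1W, M2W, M3W and M5W). The labels place the start of the diet at 4 weeks of age, the study's methods a little earlier, at weaning, and both give 4 months as the age at mating. A high-lipid diet is entered in the labels of all 8 mice, the SD mice included, and this entry was not used for them. No genetic change is given for any mouse, and the meaning of the letters M and TN in the names of the SD mice is not given in the sources used here. Each library came from whole testis, so that fewer cells of a type and less RNA per cell cannot be told apart.

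miRNAs are short RNAs that guide the silencing complex to messenger RNAs, mainly by pairing of their seed, the bases 2 to 8 counted from the 5′ end. Each hairpin precursor can give an arm from either side, and the arm that is mostly retained in the complex is called the guide arm. The miR-17-92 cluster is known for its control of proliferation and survival, is a target of Myc, limits the pro-apoptotic factor Bim, and acts in the testis in the maintenance of spermatogonia. Its members fall into 4 seed families, those of miR-17, miR-18, miR-19 and miR-92.

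On mm9 the non-coding host gene Mir17hg occupies chr14:115442101-115445949, plus strand. All 6 precursors lie within exon 2 of its longer annotated transcript and span 836 bases, in the order Mir17, Mir18 (miR-18a), Mir19a, Mir20a, Mir19b-1 and Mir92-1 (miR-92a-1). The mature sequences of the 6 guide arms are shown because the results compare these arms with each other and group them by seed. They were taken from RefSeq (GRCm38.p6), where 11 of the 12 members were matched, and their positions from an exact search of the mm9 genome. The seed is in capitals:
mmu-miR-17-5p: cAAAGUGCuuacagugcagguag
mmu-miR-20a-5p: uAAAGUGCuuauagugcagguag
mmu-miR-18a-5p: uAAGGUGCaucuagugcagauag
mmu-miR-19a-3p: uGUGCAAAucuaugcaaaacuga
mmu-miR-19b-3p: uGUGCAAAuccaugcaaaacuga
mmu-miR-92a-3p: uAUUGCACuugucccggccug

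The guide arms of miR-17 (chr14:115442906-115442928) and miR-20a (chr14:115443405-115443427) share a seed and differ by C1U and C12U, where the base of miR-17-5p comes first and positions count from the 5′ end. miR-19a-3p (chr14:115443270-115443292) and miR-19b-3p (chr14:115443580-115443602) differ by the single substitution U11C. miR-18a-5p (chr14:115443089-115443111) has a seed close to that of miR-20a-5p, with G4A as the only difference within it. miR-92a-3p (chr14:115443698-115443718) is the last and shortest guide arm, with 21 bases against 23 in the other 5. It also has the highest GC content, 57.1%, against 47.8% in miR-17-5p, 43.5% in miR-18a-5p, 39.1% in miR-20a-5p and miR-19b-3p and 34.8% in miR-19a-3p. miR-19b-3p and miR-92a-3p each match a second place in the genome, on the minus strand of chromosome X (chrX:50095168-50095190 and chrX:50095031-50095051), in the paralogous Mir106a-363 cluster. Reads of these 2 arms therefore cannot be assigned to 1 locus, whereas the other 9 arms with a sequence had 1 exact match in the genome. The authors' alignment, however, allowed 2 mismatches per read. Reads of arms 1 or 2 bases apart, such as miR-19a-3p and miR-19b-3p or miR-17-5p and miR-20a-5p, could therefore also align at each other's place. The part of this in the levels and ratios below was not tested.

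The libraries held 2064562 to 3253798 counts, and 3 counts, the smallest number taken as detectable, correspond to 0.922 to 1.45 CPM, the count scaled to library size. Intervals and floors cover counting error only. Over all small RNAs M1N and M2N stood apart from the other 6 mice, with scores of -71.4 and -34.8 on the first principal component (47.8% of the variance) against 4.28 to 33.9. The correlation between a miRNA's deviation from its mean over the mice and its GC content was positive in M1N (Spearman's rho 0.361) and M2N (0.286), near 0 in M2W (0.0472) and ran from -0.38 to -0.108 in the other 5 mice, across 298 miRNAs within each library. No TN-named mouse is on the Western diet, and log2 fold changes against each pair of SD mice are therefore given beside those of the members. The 8 germ cell markers summed to between 15826 and 21506 CPM in all 8 mice, with miR-34c-5p at 6569 CPM or more, in keeping with the tissue label, and 3 of the 8 (miR-34b-3p, miR-449a-5p and miR-871-3p) had an unadjusted p of 0.05 or less with lower levels in WD mice (edgeR, none with an adjusted p under 0.05), where 4.37% of the 366 mature miRNAs tested did. These 3 had log2 fold changes of -0.77, -1.02 and -0.77 against M1N and M2N alone and of -0.04, -0.06 and -0.14 against TN1 and TN2 alone. For miR-449a-5p, M1N had 2299 CPM, M2N 1640, TN1 1082 and TN2 940, beside 835 to 1125 CPM in WD mice. The gonadal somatic miR-202 arms summed to 3609 to 4193 CPM in SD mice, to 4187 to 4488 CPM in 3 WD mice and to 7021 CPM in M2W. Nearly all of it is miR-202-5p, whereas miR-202-3p had 202 and 181 CPM in M1N and M2N, 98.9 to 102 CPM in the TN mice and 83.7 to 165 CPM in WD mice (log2 fold change -0.34, edgeR adjusted p = 0.507). The 5 markers of vessels and stroma summed to 6433 to 6590 CPM in M1N and M2N and to 4572 to 5038 CPM in TN1 and TN2. They reached 4627 to 6071 CPM in the same 3 WD mice and 8696 CPM in M2W. This sum rests mainly on miR-145-5p and miR-126-3p. Of the 5, miR-143-3p went the other way, with 165 and 296 CPM in M1N and M2N and 355 and 402 CPM in TN1 and TN2. It had 305 to 610 CPM in WD mice (log2 fold change 0.47, edgeR adjusted p = 0.393, and 0.87 against M1N and M2N alone, adjusted p = 0.0219). The liver marker miR-122-5p was at 0 in 6 mice and at 15.4 and 12.97 CPM in TN1 and TN2, and 4 markers of pluripotent cells (miR-291a-3p, miR-292-3p, miR-294-3p and miR-295-3p) summed to 58.3 and 45.4 CPM in these 2 mice against 2.40 to 8.29 CPM in the others. The 5 white blood cell markers, led by miR-223-3p, summed to 510 and 405 CPM in M1N and M2N, to 244 and 226 CPM in TN1 and TN2, to 449 CPM in M2W and to 206 to 273 CPM in the other 3 WD mice. The sum rests on miR-223-3p and miR-150-5p, which were highest in M1N. Other markers of the list went the other way: miR-155-5p had 1.71 to 5.70 CPM, lowest in M1N, and miR-142-3p was lowest in M1N (6.51 CPM) and M2N (13.7), with 15.4 to 16.7 CPM in the TN mice and 17.1 to 21.5 CPM in WD mice (log2 fold change 0.60, edgeR adjusted p = 0.326). The 2 red blood cell markers with a row, miR-451 and miR-144-3p, summed to 66.5 and 38.3 CPM in the M pair of SD mice, to 148 and 114 CPM in the TN pair and to 74.6 to 132 CPM in WD mice. The part of these differences in the results below was not tested.

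The members covered a wide range of levels, from 1.16 CPM for miR-19a-5p to 6037 CPM for miR-19b-3p. Levels are compared here as counts of whole miRNAs of 21 to 23 bases, and the order of the guide arms was the same per base of the mature sequence. miR-19b-3p was the most abundant member, with a standard deviation (s.d.) of 1005 CPM over the 8 mice, and ranked 2 among the 576 mature miRNAs. It was followed by miR-19a-3p (1096 ± 370 CPM), miR-92a-3p (878 ± 220 CPM), miR-17-5p (439 ± 76.5 CPM), miR-18a-5p (233 ± 40.5 CPM) and miR-20a-5p (213 ± 37.4 CPM), each with n = 8. In the same mouse miR-19b-3p exceeded miR-19a-3p by 3.87- to 6.78-fold in 8 of 8 mice (mean 5.67-fold, exact paired permutation test, two-sided, p = 0.00781, the smallest that 8 mice allow). miR-92a-3p exceeded miR-17-5p (1.98-fold) and miR-17-5p exceeded miR-18a-5p (1.89-fold), each in 8 of 8 mice with the same p of 0.00781 in the exact test. Neighbours that did not differ beyond their spread were miR-19a-3p and miR-92a-3p (1.23-fold, higher in 6 of 8 mice, exact p = 0.289) and miR-18a-5p and miR-20a-5p (1.09-fold, higher in 4 of 8 mice, exact p = 0.391). These are 5 comparisons and their p-values are not adjusted.

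**Figure D1:**
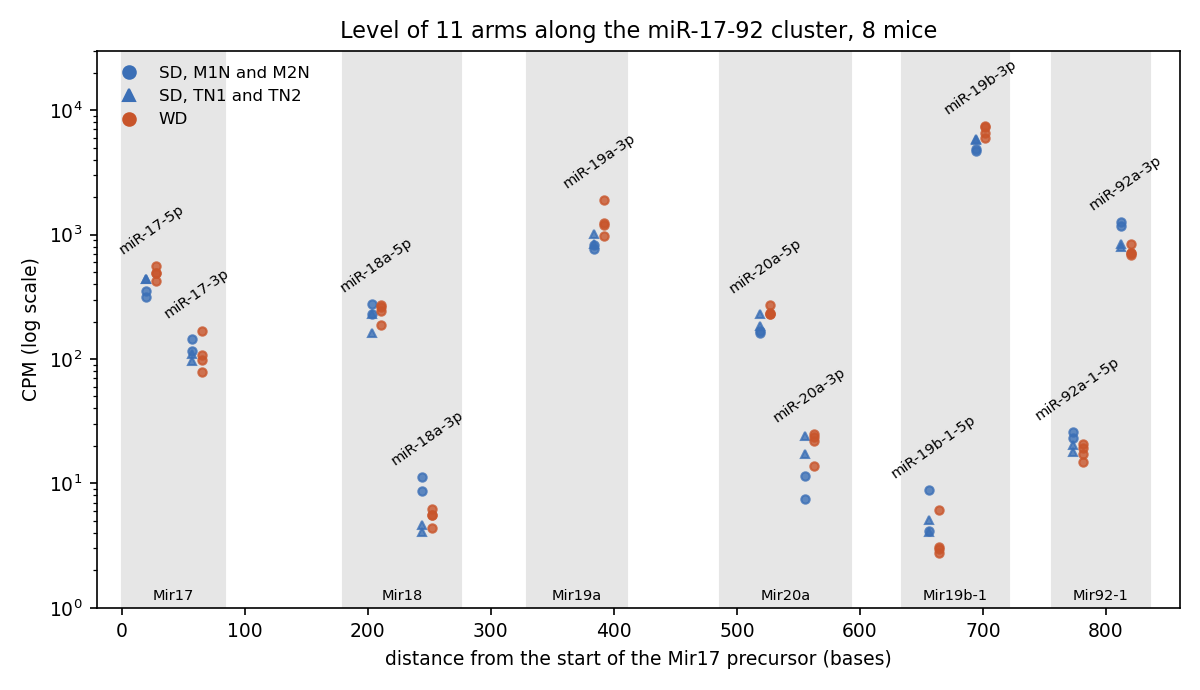
Level in CPM (log scale) of the 11 arms with a known sequence against the distance of the arm from the start of the Mir17 precursor in bases. Each point is 1 mouse, grey bands are the 6 precursors, and miR-19b-3p lies highest, between 4685 and 7397 CPM, while its partner miR-19b-1-5p lies between 2.77 and 8.91 CPM.

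The position in the transcript did not order the levels. The first guide arm of the transcript, miR-17-5p, ranked 4 among the 6, and miR-19b-3p, next to the end of the transcript's array, ranked 1. By seed, the miR-19 pair made up 73.2% to 84.9% of the counts of the 6 guide arms in every mouse. The 2 guide arms with the miR-17 seed made up 6.31% to 9.24%, miR-18a-5p 1.86% to 3.68% and miR-92a-3p 6.51% to 16.8%. As a description without a test, the miR-92 share had a mean of 13% ± 3.74 (s.d., n = 4) in SD mice and 7.57% ± 1.29 (s.d., n = 4) in WD mice. M1N and M2N had 16.8% and 15.6%, TN1 and TN2 9.62% and 9.95%, and the WD mice 6.51% to 9.37%, so that M2W lay just under TN1. In the other families the diets overlapped, with 73.2% to 80.8% in SD and 78.5% to 84.9% in WD mice for the miR-19 seed, 6.31% to 8.13% and 6.50% to 9.24% for the miR-17 seed and 1.91% to 3.68% and 1.86% to 2.93% for the miR-18 seed. The 4 shares add up to the whole and do not vary independently. The 6 guide arms together reached 7951 ± 494 CPM (s.d., n = 4) in SD mice and 9839 ± 911 CPM (s.d., n = 4) in WD mice, which is 6.36% to 9.71% and 7.03% to 11.8% of all counts on mature miRNAs.

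Of the 2 arms of each precursor, the same 1 was more abundant in all 8 mice. The 3′ arm made up nearly all counts of miR-19a and miR-19b, where the 5′ arm had 0.108% ± 0.0409 and 0.0827% ± 0.0494 of the counts (s.d., n = 8). The 5′ arm of miR-92a-1 held 2.27% ± 0.354 of the counts. The counts of miR-19b-3p and miR-92a-3p include any reads from their copies on chromosome X. The 5′ arm predominated for miR-18a (97.4% ± 0.824), miR-20a (92.4% ± 2) and miR-17 (79.0% ± 5.46, all s.d., n = 8). miR-17 thus had the most even arms, and miR-17-3p, at 115 ± 28.9 CPM (s.d., n = 8), was the most abundant of the other arms, ahead of miR-92a-1-5p at 19.9 ± 3.47 CPM.

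The share of the 5′ arm of miR-17 was 68.6%, 75.4%, 80.2% and 82.1% in M1N, M2N, TN1 and TN2 and 86.2%, 76.6%, 79.8% and 83.2% in M1W, M2W, M3W and M5W. The diets overlapped, and the log2 ratio of the arms did not differ beyond the spread (exact permutation test, two-sided, p = 0.229). The same exact test gave p = 0.286 for miR-18a, p = 0.6 for miR-20a and p = 0.286 for miR-92a-1, each with overlapping diets. For miR-19a and miR-19b, whose 5′ arms had 1 to 6 and 6 to 26 counts per mouse, no such test was made.

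Between the diets, guide arms with the seeds of miR-17 and miR-19 had higher mean levels in WD mice and miR-92a-3p a lower one, while no member passed the test across all small RNAs. The quasi-likelihood test of edgeR, adjusted by Benjamini-Hochberg over the table, called 0 of 16955 small RNAs at an adjusted p under 0.05, a share of 0%. DESeq2 and limma-voom also called 0, and edgeR gave an unadjusted p of 0.05 or less to 2474 of them (14.6%). Of the 12 members 11 passed the filter on low counts, and miR-19a-5p, with 1 to 6 counts, did not. An unadjusted p of 0.05 or less was reached by 3 members higher in WD mice (miR-19a-3p, miR-20a-5p and miR-19b-3p) and by 1 that was lower (miR-92a-3p), where 10.4% and 4.37% of the 366 mature miRNAs tested did so. The median log2 fold change was 0.09 over the 11 members, 0.35 over the 6 guide arms and -0.28 over the 5 other arms tested, beside 0.04 over the mature miRNAs and -0.01 over all small RNAs tested.

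**Figure D2:**
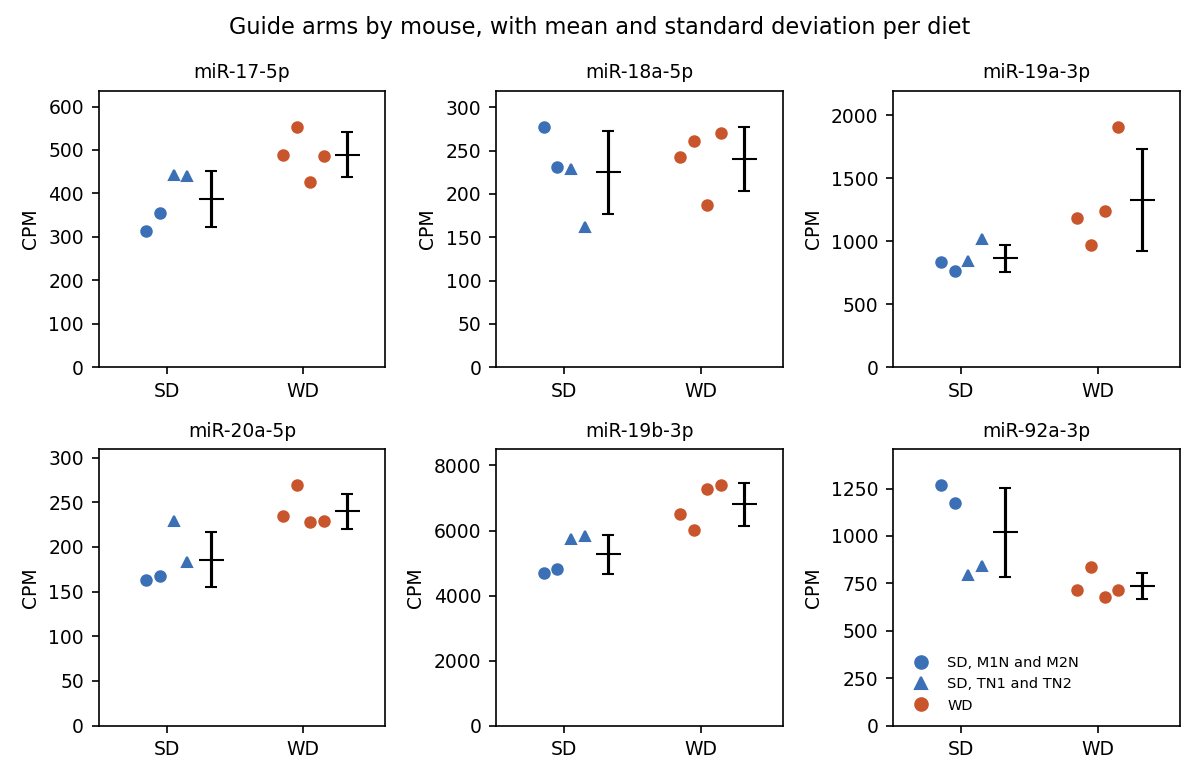
Level in CPM of the 6 guide arms in each of the 8 mice, with the mean and standard deviation per diet in black. The WD mice lie above all SD mice only for miR-19b-3p (6022 to 7397 against 4685 to 5824 CPM), and M1N and M2N (circles among the SD mice) lie far above the others for miR-92a-3p.

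The miR-19 miRNAs carry much of the oncogenic activity of the cluster in lymphoma models. miR-19b-3p was the most abundant guide arm in all 8 mice, and miR-19a-3p came next over the 8 mice but after miR-92a-3p in SD mice alone. miR-19b-3p had 4685, 4829, 5731 and 5824 CPM in M1N, M2N, TN1 and TN2 and 6515, 6022, 7289 and 7397 CPM in M1W, M2W, M3W and M5W. All 4 WD mice lay above all 4 SD mice, as for 6.28% of the mature miRNAs tested, and the TN mice lay nearest to the WD mice. The log2 fold change was 0.37 ± 0.17 (standard error; edgeR p = 0.0432, adjusted p = 0.337), and the exact permutation test gave p = 0.0286, the smallest that 4 against 4 allows. Against M1N and M2N alone the log2 fold change was 0.52 (adjusted p = 0.0653, edgeR) and against TN1 and TN2 alone 0.24 (adjusted p = 1). miR-19b-3p and miR-19a-3p belong to a list that the study drew from these same samples, so that their direction here is not independent evidence. The study also measured both by quantitative RT-PCR in testis and sperm and reported them as higher in WD mice.

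miR-19a-3p had 831, 765, 846 and 1018 CPM in the SD mice and 1188, 969, 1241 and 1910 CPM in the WD mice, in the same order of mice. M5W was the highest, and M2W lay below TN2, so that the diets overlapped. The log2 fold change of 0.62 ± 0.20 was the largest of the 11 members tested (edgeR p = 0.00808, adjusted p = 0.318; exact permutation p = 0.0571). Without M5W it was 0.40, with an unadjusted p of 0.0508. It was 0.73 against M1N and M2N alone (adjusted p = 0.0287, edgeR) and 0.51 against TN1 and TN2 alone (unadjusted p = 0.0224, adjusted p = 1).

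The arms with the miR-17 seed, known to repress E2f1 and the cell cycle inhibitor p21, had 1.26- and 1.29-fold higher levels in WD mice by edgeR. miR-17-5p was measured at 313, 355, 443 and 441 CPM in the SD mice and at 488, 554, 427 and 487 CPM in the WD mice. M1N and M2N were low, and TN1 and TN2 lay above M3W, the lowest WD mouse (edgeR p = 0.0638, adjusted p = 0.359; exact permutation p = 0.0857). miR-20a-5p had 163, 168, 230 and 183 CPM in the SD mice and 235, 269, 228 and 229 CPM in the WD mice, with TN1 above M3W and M5W (edgeR p = 0.0362, adjusted p = 0.328; exact permutation p = 0.0857). Their log2 fold changes were 0.55 and 0.54 against M1N and M2N alone (adjusted p = 0.0413 and 0.0402, edgeR) and 0.14 and 0.21 against TN1 and TN2 alone (adjusted p = 1 for both).

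miR-18a-5p, whose family is known to repress Smad proteins of the TGF-β pathway, had 278, 231, 229 and 162 CPM in the SD mice and 242, 261, 187 and 270 CPM in the WD mice. TN2 and M3W were the lowest of their diets, and the ranges largely coincided. The log2 fold change was 0.09 ± 0.19 (edgeR p = 0.617, adjusted p = 0.819; exact permutation p = 0.6). It was -0.08 against M1N and M2N alone and 0.29 against TN1 and TN2 alone, neither with an adjusted p under 0.05.

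miR-92a-3p, whose family is known to limit the sprouting of blood vessels by way of the integrin Itga5, had 1268, 1171, 796 and 843 CPM in the SD mice and 716, 835, 681 and 717 CPM in the WD mice. M1N and M2N were the highest, and TN1 lay below M2W. The log2 fold change was -0.47 ± 0.18 (edgeR p = 0.0208, adjusted p = 0.318; exact permutation p = 0.0571). No member had WD mice all below the SD mice, and 0.82% of the mature miRNAs tested did. Against M1N and M2N alone the log2 fold change was -0.73 (adjusted p = 0.00791, edgeR), and against TN1 and TN2 alone -0.15 (adjusted p = 1).

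The 5 other arms tested had 6 to 419 counts per mouse, and with all 8 mice none had an unadjusted p of 0.05 or less. miR-17-3p was measured at 144, 116, 110 and 95.9 CPM in the SD mice and at 78.2, 169, 108 and 98.3 CPM in the WD mice, the WD mice spanning the whole range. miR-20a-3p had 7.54, 11.5, 23.9 and 17.1 CPM in the SD mice and 13.8, 21.9, 24.9 and 23.6 CPM in the WD mice. The TN mice thus resembled the WD mice. Its log2 fold change was 0.48 ± 0.31 (edgeR adjusted p = 0.446) and 1.13 against M1N and M2N alone (adjusted p = 0.0125), beside 0.01 against TN1 and TN2 alone. It was 0.25 without M1N and 0.82 without TN1 (unadjusted p = 0.0148, edgeR). miR-18a-3p, miR-19b-1-5p and miR-92a-1-5p had log2 fold changes of -0.40 ± 0.34, -0.59 ± 0.37 and -0.28 ± 0.20 (edgeR adjusted p = 0.562, 0.444 and 0.503). Against M1N and M2N alone these were -0.85, -0.81 and -0.44, and against TN1 and TN2 alone 0.34, -0.30 and -0.08. The value for miR-18a-3p was -0.094 without M1N and -0.60 without TN1, and that for miR-19b-1-5p was -0.26 without M1N and -0.89 without M2W (unadjusted p = 0.039, edgeR). For miR-17-3p the log2 fold change was -0.20 against M1N and M2N and 0.13 against TN1 and TN2. The counts of the first 2, 10 to 33 and 6 to 26 per mouse, limit these values.

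**Figure D3:**
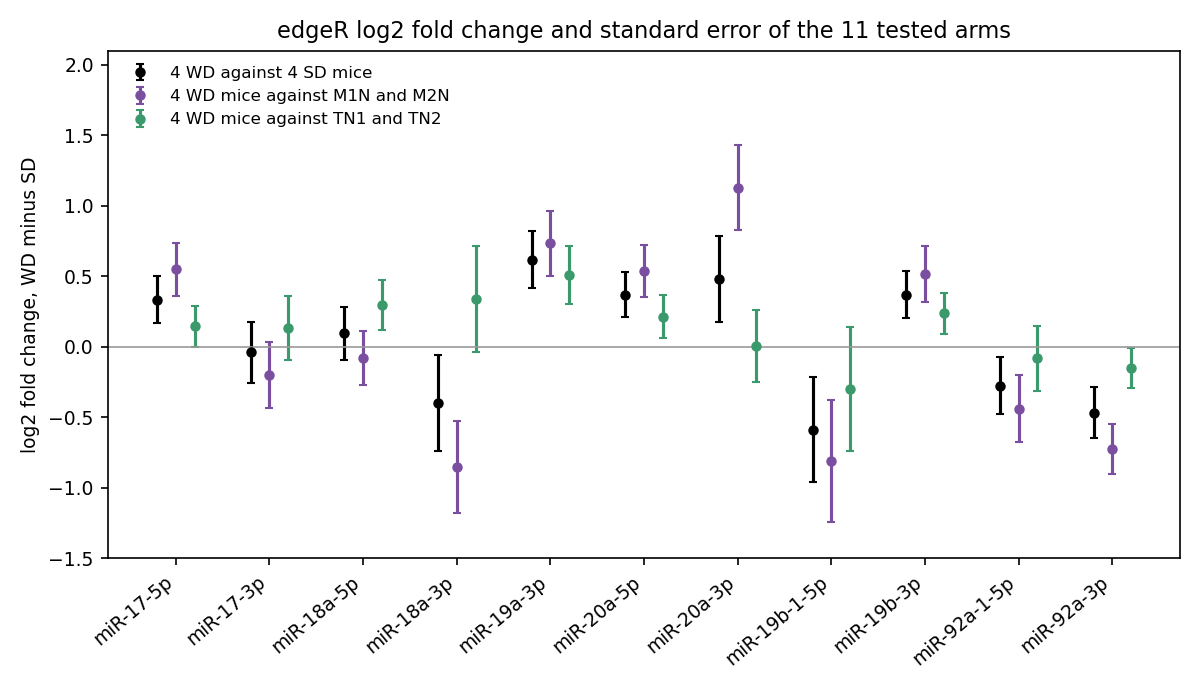
edgeR log2 fold change, WD minus SD, with its standard error for the 11 tested arms in the order of the transcript. Black points use all 8 mice, purple points M1N and M2N as the SD mice and green points TN1 and TN2. The green points lie nearer to 0 than the purple ones for the guide arms miR-17-5p, miR-19a-3p, miR-20a-5p, miR-19b-3p and miR-92a-3p, as in -0.15 against -0.73 for miR-92a-3p.

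The choice of SD mice thus set how many members were called. Against M1N and M2N alone 5 of the 11 members had an adjusted p under 0.05 (miR-17-5p, miR-19a-3p, miR-20a-5p, miR-20a-3p and miR-92a-3p) where 20.8% of 17495 small RNAs did. Against TN1 and TN2 alone no member did (edgeR; 1 had an unadjusted p of 0.05 or less, miR-19a-3p) where 0.134% of 17168 small RNAs did. What sets M1N and M2N apart from TN1 and TN2, which had the same diet, is not given in the labels, and its part in these values was not tested. The log2 fold changes of the miRNAs also went with base composition: across 298 miRNAs, which share the 8 libraries, Spearman's rho of log2 fold change with GC content was -0.339. The median was 0.25 in the 107 miRNAs with a GC content of 40.9% or less and -0.11 in the 111 with 50% or more. Among the mature miRNAs with a sequence, fitted alone without a correction, the log2 fold changes were 0.62 for miR-19a-3p (unadjusted p = 0.0425), 0.34 for miR-19b-3p (0.13), 0.31 for miR-20a-5p (0.142), 0.27 for miR-17-5p (0.213), 0.09 for miR-18a-5p (0.647) and -0.48 for miR-92a-3p (0.00647), all by edgeR. With a per-mouse correction for GC content in the same miRNAs they were 0.35 for miR-19a-3p (unadjusted p = 0.153), 0.18 for miR-19b-3p (0.312), 0.16 for miR-20a-5p (0.359), 0.30 for miR-17-5p (0.174), 0.03 for miR-18a-5p (0.877) and -0.38 for miR-92a-3p (0.0278), all by edgeR, with adjusted p of 0.319 or more. An unadjusted p of 0.05 or less was thus lost for miR-19b-3p and miR-20a-5p before the correction and for miR-19a-3p with it, and the value for miR-17-5p was no smaller with it. This correction was chosen after the data had been seen.

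Since the members come from 1 transcript, they were next compared within each mouse. A log2 ratio of 2 members in the same library does not depend on the library size or the scaling. Of the 15 pairs of guide arms 3 had ratios that did not overlap between the diets, and each of the 3 contains miR-92a-3p. The background is 5.91% of 42778 pairs of the 293 mature miRNAs with at least 10 counts in every mouse. Pairs that share an arm are not independent of each other.

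The log2 ratio of miR-92a-3p to miR-17-5p was 2.02, 1.72, 0.85 and 0.93 in M1N, M2N, TN1 and TN2 and 0.55, 0.59, 0.67 and 0.56 in M1W, M2W, M3W and M5W. The WD mice were close to each other, whereas the SD mice fell into the M and the TN pair. The means were 1.38 ± 0.58 and 0.59 ± 0.06 (s.d., n = 4 each), a difference of -0.79 (exact permutation test, two-sided, p = 0.0286; adjusted over all pairs 0.483, the smallest adjusted value among them). The log2 ratio of miR-92a-3p to miR-20a-5p was 2.96, 2.80, 1.79 and 2.20 in the SD mice and 1.61, 1.63, 1.58 and 1.65 in the WD mice. Its difference was -0.82, with the same exact p of 0.0286 and adjusted p of 0.483. As 4 against 4 mice allow no exact p below 0.0286, no pair could reach an adjusted p under 0.05 unless most pairs stood at that floor.

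The log2 ratio of miR-19b-3p to miR-92a-3p was 1.89, 2.04, 2.85 and 2.79 in the SD mice and 3.19, 2.85, 3.42 and 3.37 in the WD mice. TN1, at 2.847, lay just under M2W, at 2.851. The difference of the means was 0.82 (exact permutation p = 0.0286, adjusted 0.483). For the remaining 2 partners of miR-92a-3p the diets overlapped: the log2 ratio of miR-19a-3p to it differed by 1.02 and that of miR-92a-3p to miR-18a-5p by -0.55 (exact permutation p = 0.0571 for both, adjusted 0.521).

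**Figure D4:**
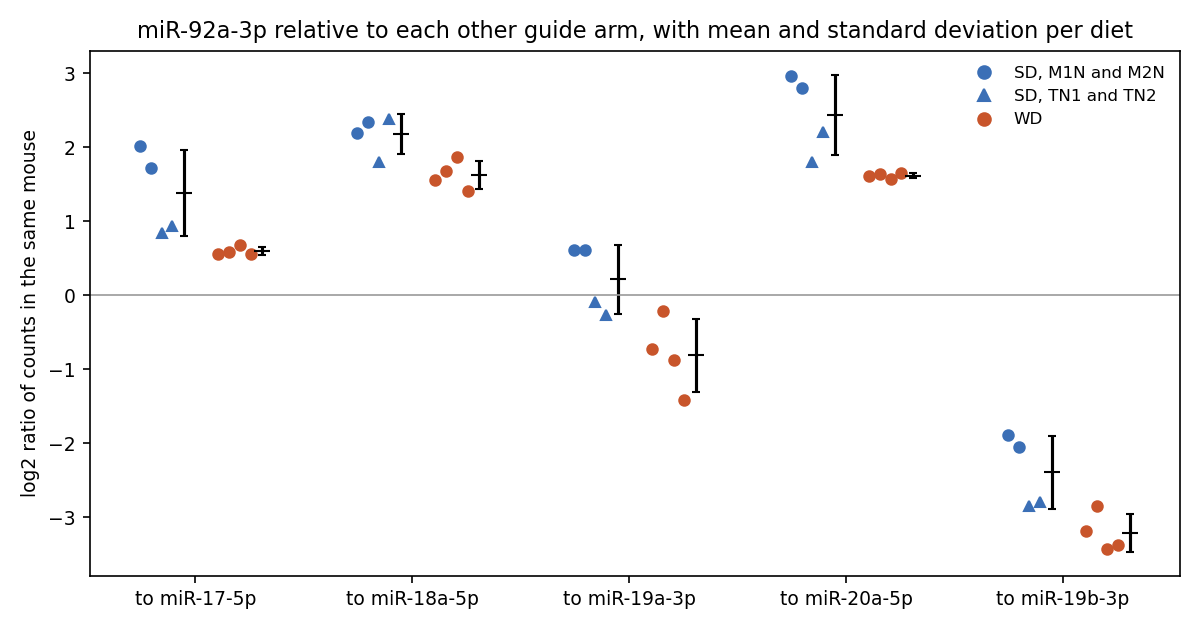
Log2 ratio of the counts of miR-92a-3p to those of each other guide arm in the same mouse, with the mean and standard deviation per diet in black. For miR-17-5p the WD mice lie between 0.55 and 0.67 and the SD mice between 0.85 and 2.02, M1N and M2N (circles) above TN1 and TN2 (triangles).

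Against TN1 and TN2 alone, the ratio to miR-17-5p differed by -0.30, that to miR-20a-5p by -0.38 and that of miR-19b-3p to miR-92a-3p by 0.39 (exact permutation p = 0.0667, 0.0667 and 0.133, where 4 mice against 2 allow no less than 0.0667). These are the same 3 pairs without overlap, which had to stay so, since a pair clear of all 4 SD mice is clear of any 2 of them. Of all pairs of mature miRNAs, 13.8% had no overlap against these mice. Against M1N and M2N alone the differences were -1.28, -1.26 and 1.24, and 9 of the 15 pairs did not overlap, where 40.4% of all pairs did not. After the curve of log2 counts on GC content was subtracted in each mouse, 3 of the 15 pairs, again with miR-92a-3p in each, did not overlap, where 5.96% of 27261 pairs did not. The pairs were then those with miR-17-5p, miR-19b-3p and miR-19a-3p, with differences of -0.73 for miR-92a-3p to miR-17-5p, 0.55 for miR-19b-3p to miR-92a-3p and 0.67 for miR-19a-3p to miR-92a-3p (exact permutation p = 0.0286 each).

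The 10 pairs without miR-92a-3p had overlapping diets with all 8 mice and differences between -0.27 and 0.47 on the log2 scale (exact permutation p = 0.171 or more). With fewer SD mice, which can only add pairs without overlap, some pairs without miR-92a-3p separated too. With M1N and M2N alone 4 of these 10 pairs did not overlap, all with miR-18a-5p, a share close to the 40.4% of all pairs of mature miRNAs. Without TN2 the ratio of miR-19a-3p to miR-18a-5p did not overlap (0.70). With M1N and M2N as the SD mice, the log2 ratio to miR-18a-5p differed by 0.60 for miR-19b-3p, 0.78 for miR-19a-3p and 0.64 for miR-17-5p, and that of miR-18a-5p to miR-20a-5p by -0.63. miR-17-5p and miR-20a-5p, which share their seed, kept the steadiest ratio. It was 0.94, 1.08, 0.95 and 1.27 in the SD mice and 1.06, 1.04, 0.90 and 1.09 in the WD mice, with a standard deviation of 0.11 over the 8 mice, of which counting alone gives 0.07. Only 0.164% of all pairs of mature miRNAs had a smaller one, and the median over all pairs was 0.499. All pairs include miRNAs with as few as 10 counts in a mouse, where counting adds more spread, so that these percentages partly reflect abundance. The ratios of miR-19b-3p to miR-20a-5p and to miR-17-5p both had a standard deviation of 0.19, with 1.91% and 2.16% of all pairs smaller, and that to miR-19a-3p one of 0.24. At the other end, miR-19a-3p and miR-92a-3p had a standard deviation of 0.70, above that of 80% of all pairs. The values for miR-92a-3p to the other 4 guide arms ran from 0.36 to 0.57.

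Each guide arm was also set against 158 abundant miRNAs outside the cluster. For 5 of the 6 guide arms, all but miR-20a-5p, the smallest standard deviation of the log2 ratio to these was below the smallest to another guide arm, which compares the smallest of 158 values with the smallest of 5. Those with the steadiest within-mouse log2 ratio to miR-92a-3p were miR-34b-3p, a germ cell miRNA, with a standard deviation of 0.09 over 8 mice, miR-484 (0.12) and miR-467a-3p (0.13). For miR-17-5p they were miR-30b-5p (0.07), miR-350-3p (0.11) and miR-16-2-3p (0.12), and for miR-20a-5p miR-16-2-3p (0.12), miR-30b-5p (0.13) and miR-148b-3p (0.16). miR-19b-3p and miR-19a-3p had the same nearest miRNA, miR-30e-5p (0.12 and 0.19), followed by miR-16-5p (0.13) for the former and miR-468-5p (0.24) for the latter, and miR-467a-5p came next for both (0.15 and 0.28). For miR-18a-5p they were miR-30e-3p (0.16), miR-22-3p (0.17) and let-7a-5p (0.19). The sum of the 6 guide arms was nearest to miR-467a-5p (0.11), miR-16-5p (0.12) and miR-883a-3p (0.14). These are the smallest of 158 values each and carry no test.

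The paralogous clusters that share the seeds are Mir106a-363 on chromosome X and Mir106b-25. Of their 16 arms 11 had a row in the table, and 7 passed the filter. The nearest relative of miR-17-5p, miR-106a-5p, and the 3 arms of Mir106b-25 that share a guide arm's seed are shown because their values are set beside those of the guide arms, with the seed in capitals:
mmu-miR-106a-5p: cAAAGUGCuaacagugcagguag
mmu-miR-93-5p: cAAAGUGCuguucgugcagguag
mmu-miR-106b-5p: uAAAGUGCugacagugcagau
mmu-miR-25-3p: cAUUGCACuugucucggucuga

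miR-106a-5p differs from miR-17-5p by U10A alone and had 9 to 30 counts per mouse, against 914 to 1566 for miR-17-5p. The other rows of the chromosome X cluster were as low, with 11 to 41 counts for miR-20b-5p, which has 2 differences from miR-17-5p and from miR-20a-5p, 0 to 7 for miR-18b-5p, 0 to 5 for miR-363-3p and 0 to 3 for miR-20b-3p. For a count of 0 the limit is the floor of 3 counts. The log2 fold changes of miR-106a-5p and miR-20b-5p were -0.41 and -0.64 (edgeR adjusted p = 0.514 and 0.409). That of miR-20b-5p was 0.19 relative to M1N and M2N only and -1.20 relative to TN1 and TN2 only (adjusted p = 0.767 and 0.449). How a read with several matches was counted is not given in the sources used here, so that values of near-identical arms are uncertain.

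The Mir106b-25 cluster was well expressed. miR-93-5p, of the miR-17 seed, had 529 ± 88.1 CPM in SD mice and 558 ± 44.1 CPM in WD mice (s.d., n = 4 each; log2 fold change 0.08, edgeR adjusted p = 0.833). This value lay between -0.11 relative to M1N and M2N only and 0.29 relative to TN1 and TN2 only, of opposite sign. miR-106b-5p, of the same seed, had 71.8 ± 16.7 and 98.1 ± 13.6 CPM (0.45, edgeR p = 0.0294, adjusted p = 0.323; exact permutation p = 0.0571). miR-25-3p, of the miR-92 seed, had 293 ± 41.6 and 262 ± 32.2 CPM (-0.16, edgeR adjusted p = 0.624). Among the other arms of the cluster, miR-93-3p had a log2 fold change of -0.53 (edgeR p = 0.0266, adjusted p = 0.323; exact permutation p = 0.0571) and miR-106b-3p of -0.22 (adjusted p = 0.658). Against M1N and M2N alone the log2 fold changes were 0.70 for miR-106b-5p and -0.71 for miR-93-3p (edgeR adjusted p = 0.018 and 0.0429), and against TN1 and TN2 alone 0.23 and -0.31 (adjusted p = 1 for both). Of the 7 tested arms of the paralogous clusters, 1 higher and 1 lower arm was called against all 4 SD mice at an unadjusted p of 0.05, where 10.4% of mature miRNAs were called higher and 4.37% lower, and none an adjusted p under 0.05.

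Outside both clusters the miR-92 seed was found in miR-32-5p, miR-92b-3p and miR-367-3p. miR-32-5p was higher in all 4 WD mice (16.8 to 20.3 CPM) than in all 4 SD mice (12.8 to 13.9 CPM), as were 6.28% of mature miRNAs, with a log2 fold change of 0.40 (edgeR p = 0.0573, adjusted p = 0.351; exact permutation p = 0.0286). miR-92b-3p had -0.25 (adjusted p = 0.687), with -0.61 relative to M1N and M2N only and 0.29 relative to TN1 and TN2 only (edgeR adjusted p = 0.139 and 1), so that its direction turned with the pair of SD mice. miR-367-3p had 0 to 3 counts and was not tested. Members of the miR-92 seed family thus had log2 fold changes of both signs, from -0.47 in miR-92a-3p to 0.40 in miR-32-5p, and none passed the test.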

How the data were processed

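Small RNA libraries of 8 testes were sequenced on a SOLiD instrument. The authors trimmed the reads, aligned them to mm9 with Bowtie, annotated them with miRBase, Rfam and a non-coding RNA database, and deposited raw read counts per small RNA, 1 column per mouse. DESeq is also named in the submitters' processing notes. The study names the release of miRBase. The versions of Bowtie and DESeq, and how reads matching several places were treated, are not given in the sources used here.

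The deposited counts of the whole table went into 1 fit with edgeR 4.0.16 under R 4.3.3, with TMM factors, filterByExpr with a minimum count of 10 and a minimum total of 15, glmQLFit and glmQLFTest, two-sided, diet as the only term, Benjamini-Hochberg adjustment over the 16955 small RNAs tested. CPM values were computed on the TMM-adjusted library sizes. Standard errors, taken from the F statistic, are approximations. Whether the mice of a group came from separate litters is not stated, and p-values measure the spread between these mice. Exact permutation tests used all 70 assignments of mice to diets, and the paired test all 256 sign changes. P-values of the guide-arm ratios were adjusted over the same test on 42778 pairs of mature miRNAs. The counting share of a ratio's standard deviation assumes Poisson counts. No pair of libraries was a duplicate (chi-square per degree of freedom 2.56 to 24.4 over 28 pairs). The edgeR fit was checked on simulated counts with known changes.

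Named small RNAs followed a rule: all members, both paralogous clusters, miRNAs with a guide arm's seed, and for each guide arm and their sum the 3 miRNAs (mean count at least 100, at least 10 in every mouse) with the smallest standard deviation of the within-mouse log2 ratio. The members, lists and tests were chosen with earlier results of these data known. For GC content, 298 of the 366 mature miRNAs tested (81.4%) had a RefSeq sequence, some under a later name. A lowess curve (span 0.667) of each miRNA's deviation on GC content gave the offsets. Alternatives were DESeq2 1.42.0, limma 3.58.1 (voom), other scalings and filters, each pair of SD mice, each mouse left out and a block on the mouse number. Figures were drawn with matplotlib 3.10.9. Gene positions are those of GENCODE on NCBIM37 (mm9).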

Additional observations from a re-analysis of the deposited data

Results flagged for a closer look

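Among 54 sets of 4 mice examined, the CPM of the 12 members and the log2 ratios of the 15 guide-arm pairs in each diet, 2 had a mouse far from the others of its diet, where chance gives about 2.7 (1 in 20). Both are M2W. miR-20a-5p had 269.3 CPM in M2W against 228.1 to 234.7 CPM in the other WD mice, a gap of 0.839 of the range. miR-19b-1-5p had 6.1394 CPM in M2W against 2.7646 to 3.1107 CPM, a gap of 0.897, at counts of 6 to 26 per mouse.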

How the results depend on the processing

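Of 230 values of the 11 tested members under other settings, 215 kept their sign and their side of an adjusted p of 0.05, 5 passed it (all against M1N and M2N alone, given with the members) and 10 changed sign. Of 209 values of the 19 within-mouse ratios, 17 changed sign, none of them in a pair with miR-92a-3p. The number of members with an unadjusted p of 0.05 or less, 4, became 7 with M1N and M2N as the only SD mice, 1 with TN1 and TN2, 2 with scaling within the miRNA class, 2 among mature miRNAs with a sequence, 1 with the GC correction and 1 at a p of 0.1 or less with a fold change of 1.5 or more. With 1 mouse left out it ran from 1 (without M2N, M1W or M3W; 2 without M5W) to 5 (without TN1). For all small RNAs the share called at this threshold is given only with all 8 mice, 14.6%. The member counts under the other settings therefore cannot be read as more or fewer than the background. The number of small RNAs with an adjusted p under 0.05, 0 with all 8 mice, was 3642 (20.8%) against M1N and M2N alone. It was 23 (0.134%) against TN1 and TN2 alone. In the 4 M-named mice with numbers 1 and 2 it was 1176 with the replicate block on that number and 1044 without the block, and the members called at an unadjusted p of 0.05 or less were 4 and 5. The numbers name different animals, and M1N and M1W did not deviate together (r = -0.0561 over 16955 small RNAs). The number of guide-arm pairs without overlap, 3, was 9 against M1N and M2N alone and 3 to 5 with 1 mouse left out (5 without TN2). With fewer mice this number cannot fall, so that these settings could not put the 3 pairs in question. The order of the guide arms kept 4 of 6 ranks in SD mice alone, where miR-92a-3p came before miR-19a-3p, and 4 of 6 in WD mice alone, where miR-20a-5p came before miR-18a-5p. The cause of these changes was not tested.

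For miR-17-3p (-0.04) the log2 fold change was 0.019 with column totals, 0.13 against TN1 and TN2 alone and between -0.29 and 0.10 with 1 mouse left out. For miR-18a-5p (0.09) it was -0.080 against M1N and M2N alone, -0.01 in the M-named mice with and without the replicate block (-0.0076 and -0.0123) and -0.033 to 0.21 with 1 mouse left out. For miR-18a-3p (-0.40) it was 0.34 against TN1 and TN2 alone. Among the ratios, against M1N and M2N alone, miR-19b-3p to miR-17-5p was -0.034 and miR-17-5p to miR-20a-5p 0.011. Against TN1 and TN2 alone the ratio of miR-19b-3p to miR-18a-5p was -0.074, of miR-19b-3p to miR-20a-5p 0.0079, of miR-17-5p to miR-18a-5p -0.17, of miR-18a-5p to miR-20a-5p 0.082, of the miR-18a arms -0.0037 and of the miR-20a arms 0.20.
With 1 mouse left out, the difference ran from -0.069 to 0.15 for miR-19b-3p to miR-17-5p, from -0.072 to 0.11 for miR-19b-3p to miR-20a-5p, from -0.012 to 0.39 for miR-19a-3p to miR-20a-5p, from -0.075 to 0.032 for miR-17-5p to miR-20a-5p and from -0.38 to 0.026 for the miR-20a arms.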
